A study of Mus musculus with 12 samples.

Results

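The BCL2 family sets the threshold for the mitochondrial route of apoptosis, and 10 of its genes were followed here in the duodenum and liver of mice given corticosterone. They were the prosurvival genes Bcl2, Bcl2l1 (which encodes BCL-XL) and Mcl1, the pore-forming effectors Bax and Bak1, and the BH3-only genes Bcl2l11 (BIM), Bid, Bad, Bbc3 (PUMA) and Pmaip1 (NOXA). Members were taken by gene name from a table for each tissue, and all 10 were among the 55416 genes listed in each. Male C57BL6/J mice, 8 weeks old at the start, were injected under the skin every day for 8 weeks with corticosterone at 40 mg/kg (CORT) or with the vehicle of DMSO, Tween-80 and water (Veh). Total RNA was taken from 50 mg of duodenum, labelled intestine, or of liver, and each of the 4 groups had 3 libraries labelled as biological replicates. The labels do not say whether an intestine and a liver library with the same number came from the same mouse. Expression was given as TPM, a share of all transcripts that scales each gene to its length. By definition it also scales each library to the same total, so that the sequencing depth behind a value is unknown. The listed genes summed to 993160 to 997319 TPM in the intestine libraries and 983327 to 996427 TPM in the liver libraries. In both tissues every CORT sum was below every Veh sum.

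Proteins of this family act on the outer mitochondrial membrane. BAX and BAK oligomerise there and open pores that release cytochrome c, prosurvival proteins hold them and the BH3-only proteins in a groove on their surface, and BH3-only proteins carry stress signals by filling that groove or by activating the effectors. In the gut, where epithelial cells are replaced within days, and in the liver, where hepatocytes depend on BCL-XL and MCL-1, the balance between the classes is known to decide whether a damaged cell survives. The comparisons asked whether that balance of transcripts differed between CORT and Veh mice in each tissue. A transcript level is not a protein level, and much of the control of these proteins lies after transcription.

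All members share the BH3 region, the short helix through which they bind one another, and its coding sequence is shown because it is the sequence feature by which the classes meet. Each stretch of 45 bases below was read 5′ to 3′ on the coding strand from GENCODE vM21 transcripts of GRCm38, lies in a single coding exon, and was found by a search of the translated protein for a leucine, 3 residues of any kind, a glycine, alanine or serine, and an aspartate. The capitals mark the codon of the leucine and the codons of the small residue and the aspartate.
Bcl2 (chr1:106712569-106712613, minus strand): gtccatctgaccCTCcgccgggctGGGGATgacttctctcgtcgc
Bcl2l1 (chr2:152829691-152829735, minus strand): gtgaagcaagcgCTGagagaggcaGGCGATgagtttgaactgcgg
Mcl1 (chr3:95659424-95659468, plus strand): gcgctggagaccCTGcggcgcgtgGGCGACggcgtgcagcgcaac
Bax (chr7:45465991-45466035, minus strand): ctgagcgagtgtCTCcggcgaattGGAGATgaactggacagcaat
Bak1 (chr17:27022525-27022569, minus strand): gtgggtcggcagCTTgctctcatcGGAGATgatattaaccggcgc
Bcl2l11 (chr2:128147138-128147182, plus strand): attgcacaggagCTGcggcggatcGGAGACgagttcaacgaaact
Bid (chr6:120897283-120897327, minus strand): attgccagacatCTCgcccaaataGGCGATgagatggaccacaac
Bad (chr19:6950780-6950824, plus strand): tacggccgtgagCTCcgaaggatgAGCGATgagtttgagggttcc
Bbc3 (chr7:16313761-16313805, plus strand): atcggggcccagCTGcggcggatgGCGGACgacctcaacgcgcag

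The pattern occurred once in each of these 9 proteins. The small residue was a glycine in all but Bad, where it was a serine, and Bbc3, where it was an alanine. Pmaip1 held the pattern in 2 places and its sequence is not shown. The prosurvival proteins carry the BH3 region as part of their groove, between residues 90 and 95 in BCL-XL and between residues 194 and 199 in MCL-1, whereas in BIM it lies at residues 150 to 155 of 196, toward the end of the protein.

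The tissues carried their own markers, and genes known to respond to glucocorticoids were higher in CORT in both. Summed over 10 hepatocyte genes, the level was 65241 to 97174 TPM in liver and 218 to 259 TPM in intestine, and the sum of 10 enterocyte genes was 27390 to 53302 TPM in intestine and 188 to 3992 TPM in liver, with every CORT liver above every Veh liver. Of 6 genes known to be induced by glucocorticoids, 3 passed the test as higher in CORT in each tissue, with median differences of 2.28 and 1.55 over the 6. Among them, Fkbp5, which encodes a chaperone of the glucocorticoid receptor, was higher in CORT by 4.30 in intestine and by 4.23 in liver, as a difference of log2 values (limma, adjusted p = 0.0045 and 0.00178). A gene was called when limma's p, adjusted over all genes tested, was 0.05 or less and the change of log2(TPM + 1) was over 1.5-fold. In intestine 292 of 13607 genes were called, which is 2.15%, and in liver 810 of 11699, which is 6.92%. In liver 575 of the called genes were higher in CORT and 235 lower, and with libraries rescaled by median ratios the split was 543 higher and 469 lower. Libraries of the intestine differed in pancreatic acinar transcripts. Veh libraries 2 and 3 held 4.70% and 3.82% of their TPM in 32 acinar genes, while Veh library 1 and the 3 CORT libraries held 0.0692% to 0.0962%.

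None of the 10 members was called in intestine, none of the 8 that could be tested was called in liver, and none of 8 was called for a difference between the tissues. The members' values that stood farthest from the replicate spread were the effectors Bak1 and Bax and the BH3-only gene Bid, all lower in the CORT intestine, and Bcl2l1, higher in the CORT liver. None passed the adjusted test. The median difference of the members was 0.24 in intestine and -0.06 in liver, beside -0.01 and 0.08 over all genes tested. At an unadjusted p of 0.05 or less, 3 of 10 members were lower in the CORT intestine, against 10.5% of all genes tested there, and 1 of 8 was higher in the CORT liver, against 16.9%. CORT and Veh libraries did not overlap for 3 members that were lower in the CORT intestine (14.3% of all genes tested), for 1 that was higher there (12.2%), for 1 that was higher in the CORT liver (20.6%) and for 0 that were lower in the CORT liver (11.6%). The 1 higher in the CORT intestine was Bcl2, which entered the test only through its CORT group. The share in the liver is close to or under that of all genes. With 3 libraries against 3, a two-sided exact permutation test of a single gene cannot give a p below 0.1.

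**Figure D1:**
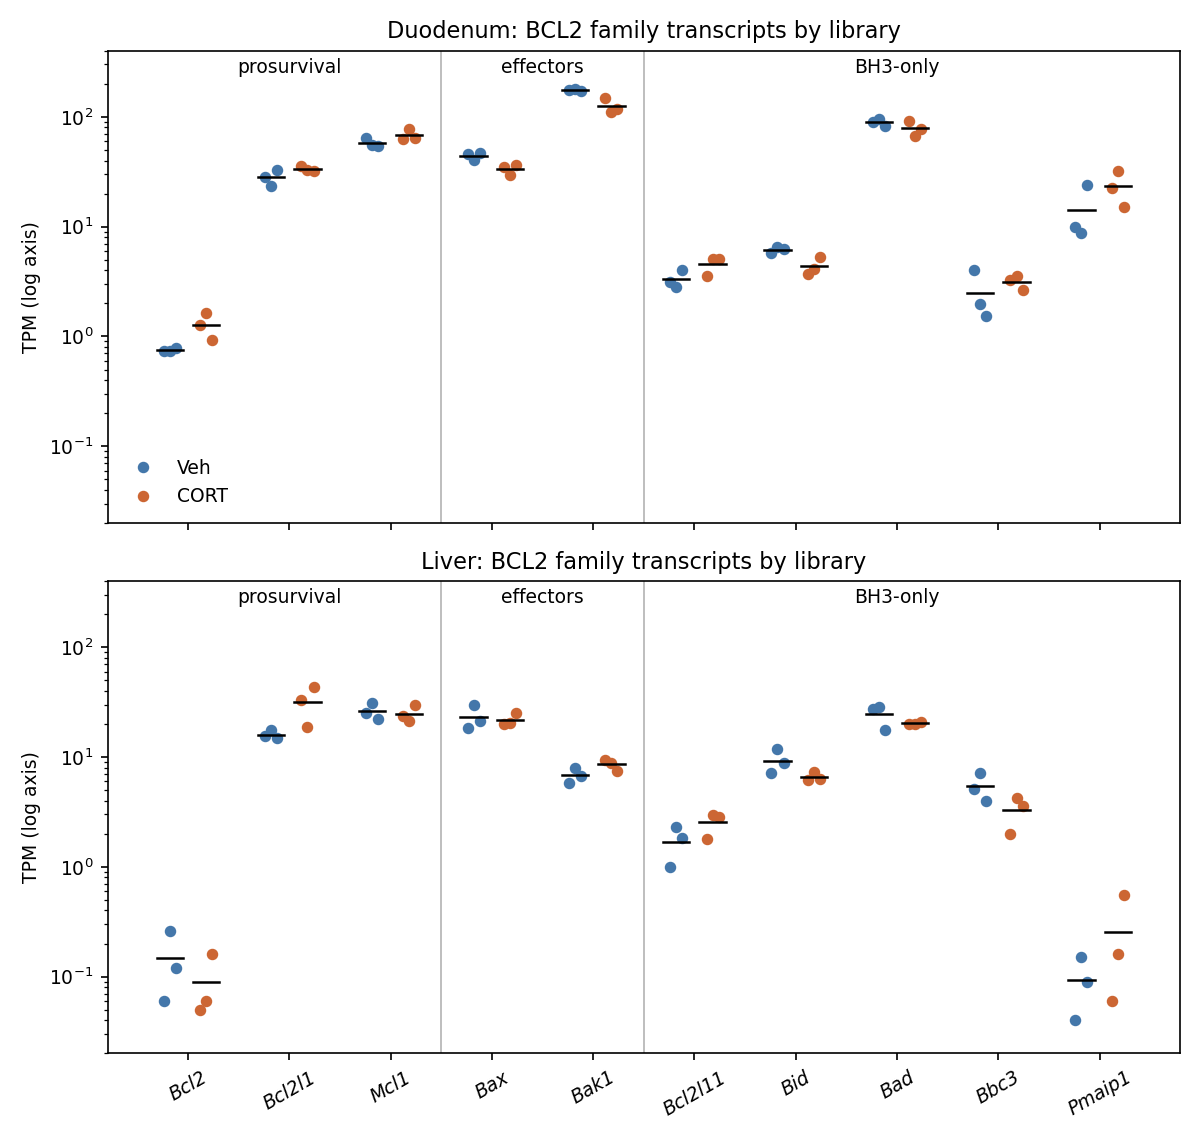
TPM of each member in each library, on a log axis, for the duodenum (top) and liver (bottom), with Veh in blue, CORT in orange and a black bar at the group mean. Bak1 lies near 170 TPM in the Veh duodenum and near 7 TPM in the Veh liver, and Bcl2 and Pmaip1 lie below 1 TPM in all liver libraries.

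Values below are given in the order of library 1, 2 and 3. Bcl2l1 encodes BCL-XL, which restrains BAX and BAK in long-lived cells. In liver it measured 33.0, 18.7 and 42.9 TPM in CORT and 15.7, 17.6 and 14.7 TPM in Veh. CORT libraries 1 and 3 stood far above the Veh libraries and CORT library 2 only just above the highest of them, so that the groups did not overlap but the CORT group was spread widely. The means were 31.5 ± 12.2 and 16.0 ± 1.47 TPM (SD, n = 3). The difference was 0.86 on the log2 scale (SE 0.28, 95% interval 0.19 to 1.53), with a limma adjusted p of 0.114. CORT library 2 decided the call, since without it the difference was 1.19 with an adjusted p of 0.0248. When each liver library was left out in turn, the difference ran from 0.61 to 1.19. In intestine Bcl2l1 measured 35.6, 32.6 and 31.8 TPM in CORT and 28.1, 23.3 and 33.1 TPM in Veh. Veh library 3 lay among the CORT libraries, and the difference of 0.25 (95% interval -0.11 to 0.61) did not pass the test.

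Mcl1 encodes a short-lived prosurvival protein whose loss is lethal to many epithelial cells and hepatocytes. Its levels in intestine were 62.7, 77.8 and 64.6 TPM in CORT and 63.9, 55.5 and 54.7 TPM in Veh. Only Veh library 1 reached into the CORT range. The difference of 0.23 (limma adjusted p = 0.407) did not pass. In liver it stood at 23.4, 21.3 and 29.6 TPM in CORT and 25.03, 31.0 and 22.1 TPM in Veh, and the groups lay across each other. Its difference there was -0.07, with a 95% interval of -0.50 to 0.36, and its sign turned when CORT library 2 or Veh library 2 was left out.

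Bcl2, the founding member of the family, was the lowest of the prosurvival genes. In intestine it measured 1.27, 1.62 and 0.92 TPM in CORT and 0.74, 0.73 and 0.78 TPM in Veh, without overlap. It entered the test only through the CORT group, since the Veh mean was under the minimum of 1 TPM, and its difference of 0.36 had a limma adjusted p of 0.379. In liver all its values lay between 0.05 and 0.26 TPM, and it was not tested.

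Bak1 and Bax encode the proteins that form the pore. Bak1 was the most abundant member in intestine, at 148, 110.0 and 119 TPM in CORT and 176, 181 and 170.3 TPM in Veh. The Veh libraries were close together and all above the CORT libraries, and Veh library 1, which had few acinar transcripts, lay between the other two. That is the place of 1 library, and the part of acinar tissue in the difference was not tested. The means were 126 ± 19.8 in CORT and 176 ± 5.14 TPM in Veh (SD, n = 3), a ratio of 0.715. On the log2 scale the difference was -0.49 (SE 0.14, 95% interval -0.83 to -0.15), with an unadjusted limma p of 0.011 and an adjusted p of 0.139. With acinar genes removed and TPM rescaled it was -0.53 (adjusted p = 0.104). With Veh libraries 2 and 3 both left out, an alternative chosen after seeing the data, it was -0.49 with an adjusted p of 0.558.

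In liver Bak1 was far lower, at 9.44, 8.84 and 7.46 TPM in CORT and 5.82, 8.01 and 6.75 TPM in Veh. CORT libraries 1 and 2 were above the Veh range and CORT library 3 within it, for a difference of 0.29 (adjusted p = 0.288). The difference of liver minus intestine in the response of Bak1 was 0.78 (95% interval 0.33 to 1.23), with an unadjusted limma p of 0.0028 and an adjusted p of 0.0691. It passed the test when intestine CORT library 1 was left out (0.90, adjusted p = 0.0464) or when liver Veh library 2 was left out (0.88, adjusted p = 0.0378), and stayed above 0.05 in the other leave-one-out fits, with an adjusted p of up to 0.161.

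Bax in intestine measured 35.0, 29.6 and 36.7 TPM in CORT and 45.5, 40.5 and 47.3 TPM in Veh. All CORT libraries were below all Veh libraries. The difference was -0.39 (95% interval -0.70 to -0.07), with an adjusted p of 0.185. In liver Bax stood at 20.0, 20.3 and 25.2 TPM in CORT and 18.3, 29.7 and 21.5 TPM in Veh, with overlap and a difference of -0.06 that turned positive without Veh library 2.

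Some sums of cell type markers also stood apart between CORT and Veh, and those of intestine come first. The sum of 5 plasma cell markers was 231 to 523 TPM in CORT and 840 to 1037 TPM in Veh, with all 5 lower at an unadjusted p of 0.05 or less and 1 called. Of all genes tested in intestine, 10.5% were lower and 8.72% higher at that p, and 2.15% were called. The 5 erythroid markers summed to 366 to 706 TPM in CORT and 119 to 247 TPM in Veh, and all 5 were higher at an unadjusted p of 0.05 or less with 0 called. Enterocyte markers summed to 44303 to 53302 TPM in CORT and 27390 to 40907 TPM in Veh, but 6 of the 10 had a difference above 0 and 4 below 0, with 0 called. The sums overlapped for 7 smooth muscle markers, at 309 to 499 TPM in CORT and 468 to 925 TPM in Veh. In liver the sum of 5 endothelial markers was 66.1 to 73.1 TPM in CORT and 22.3 to 42.9 TPM in Veh. Of the 5, 2 were called higher, beside 4.91% of all genes tested there. The 6 B cell markers there summed to 0.04 to 0.31 TPM in CORT and 2.23 to 6.68 TPM in Veh, with 2 tested and 0 called. The part of these cell types in the members' values was not tested. In such bulk samples, fewer cells of a type and less RNA per cell cannot be told apart.

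**Figure D2:**
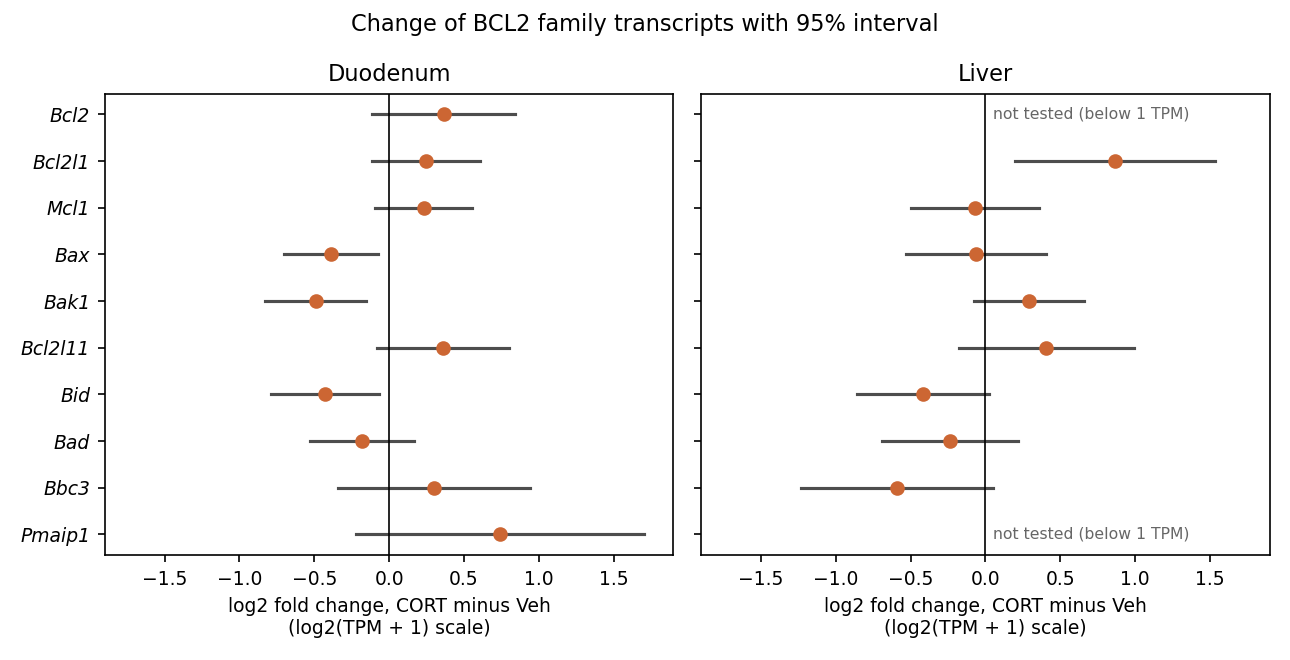
Difference of log2(TPM + 1), CORT minus Veh, for each member in duodenum and liver, as a point with its 95% interval from limma. In duodenum the intervals of Bax, Bak1 and Bid lie below 0, in liver that of Bcl2l1 lies above 0, and none passed the adjusted test.

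The BH3-only members showed no single direction. Bid, which caspase-8 cleaves to link death receptors to mitochondria, measured 3.72, 4.08 and 5.26 TPM in the CORT intestine and 5.75, 6.49 and 6.25 TPM in the Veh intestine. The groups did not overlap, and the difference of -0.43 (95% interval -0.79 to -0.07) had an adjusted p of 0.191. In liver it measured 6.15, 7.28 and 6.24 TPM in CORT and 7.16, 11.8 and 8.76 TPM in Veh. CORT library 2 lay just above the lowest Veh library. The difference there was -0.42 (adjusted p = 0.213), and the tissues' responses differed by 0.01 (95% interval -0.52 to 0.54).

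Bad, a BH3-only protein that is held inactive by phosphorylation when growth factors are present, was the second most abundant member in both tissues of Veh mice. It measured 91.5, 67.5 and 77.0 TPM in the CORT intestine and 89.5, 95.2 and 81.9 TPM in the Veh intestine. In liver the values were 19.8, 20.1 and 21.0 TPM in CORT and 27.3, 28.7 and 17.7 TPM in Veh. The groups overlapped in both tissues, with differences of -0.18 and -0.24 that did not pass the test.

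Bcl2l11 encodes BIM, a strong activator of the effectors that FOXO factors can induce and that takes part in the glucocorticoid killing of lymphocytes. It measured 3.53, 5.11 and 5.05 TPM in the CORT intestine and 3.12, 2.81 and 4.06 TPM in the Veh intestine. Its liver values were 1.79, 2.98 and 2.85 TPM in CORT and 0.99, 2.28 and 1.81 TPM in Veh. The differences were 0.36 and 0.41, both with overlap and with adjusted p of 0.349 and 0.350 by limma.

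Bbc3 and Pmaip1 encode PUMA and NOXA, which p53 can induce. Bbc3 measured 3.29, 3.52 and 2.65 TPM in the CORT intestine and 4.02, 1.98 and 1.53 TPM in the Veh intestine, and 1.97, 4.27 and 3.60 TPM in the CORT liver and 5.10, 7.11 and 3.96 TPM in the Veh liver. In intestine the Veh libraries spanned the CORT range, and in liver only CORT library 2 reached above the lowest Veh library. The differences were 0.30 in intestine and -0.59 in liver (adjusted p = 0.574 and 0.223). The gap between them, -0.89 (95% interval -1.76 to -0.02), had an unadjusted limma p of 0.0461 and an adjusted p of 0.276. For the test between tissues, 2 of 8 members (Bak1 and Bbc3) had an unadjusted p of 0.05 or less, against 17.4% of 10500 genes, and 0 of 8 were called, against 3.00%.

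Pmaip1 had the widest interval of the members in intestine. There it measured 22.5, 32.2 and 15.1 TPM in CORT and 10.03, 8.75 and 24.0 TPM in Veh. Veh library 3 exceeded CORT libraries 1 and 3, and the difference of 0.74 had a 95% interval of -0.22 to 1.70. In liver its values were 0.06, 0.16 and 0.55 TPM in CORT and 0.04, 0.15 and 0.09 TPM in Veh, under the minimum for testing.

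The balance between classes was described as the summed TPM of a class over the summed TPM of Bcl2, Bcl2l1 and Mcl1 in the same library, with no test. Such a ratio rests mainly on the most abundant genes of each class. In intestine the effector ratio was 1.84, 1.25 and 1.60 in CORT and 2.39, 2.78 and 2.46 in Veh. All CORT libraries were lower than all Veh libraries, with means of 1.56 ± 0.297 and 2.54 ± 0.209 (SD, n = 3) and a difference of -0.72 in the log2 ratio. Both sums stood apart between the groups. The effector sum was 140 to 183 TPM in CORT and 218 to 221 TPM in Veh, and the prosurvival sum was 97.4 to 112 TPM in CORT and 79.6 to 92.7 TPM in Veh. Bak1 made up 76.4% to 81.7% of the effector sum in the intestine libraries and Mcl1 61.8% to 69.8% of the prosurvival sum. The difference in log2 ratio ran from -0.85 to -0.57 when each library was left out in turn, and was -0.63 without Veh libraries 2 and 3. The BH3-only ratio in intestine was 1.25, 1.00 and 1.08 in CORT and 1.21, 1.45 and 1.33 in Veh, with CORT library 1 inside the Veh range. Its difference in log2 ratio was -0.26, or -0.12 with the mean of log2(TPM + 1) over members, while the effector difference was -0.72 both ways. That mean gives Bcl2, which entered the test only through its CORT group, the same weight as Bcl2l1 and Mcl1.

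In liver the effector ratio was lower than in intestine in every library, at 0.521, 0.729 and 0.449 in CORT and 0.591, 0.770 and 0.765 in Veh. CORT library 2 lay inside the Veh range. The BH3-only ratio was 0.528, 0.870 and 0.470 in CORT and 0.997, 1.02 and 0.876 in Veh. The highest CORT value fell just under the lowest Veh value, and the difference in log2 ratio was -0.68, or -0.95 to -0.51 when each library was left out. With the mean of log2(TPM + 1) over the members of a class in place of the sum, it was only -0.37, and the effector difference in liver went from -0.34 to -0.13. That mean gives each member equal weight, including Bcl2 and Pmaip1, which were too low in liver to be tested. Bcl2l1 took 54.7% of the prosurvival sum of the CORT liver and 38.1% in the Veh liver. Ratios of the tissues come from tables that were scaled separately and are set side by side only.

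**Figure D3:**
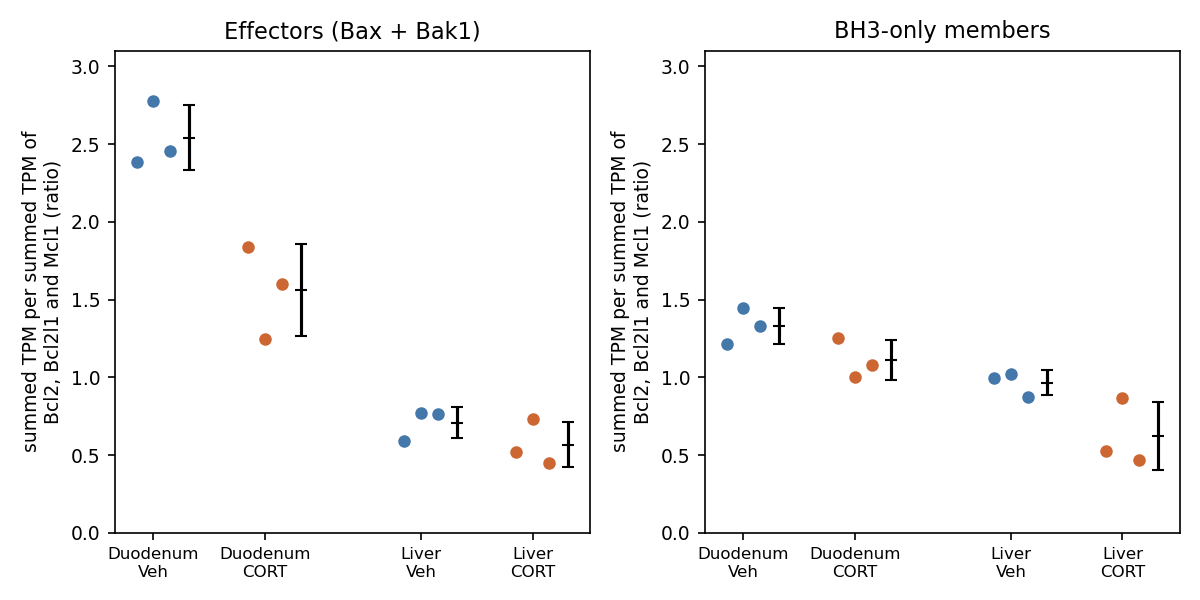
Summed TPM of the effectors (left) and of the BH3-only members (right) per summed TPM of the prosurvival members, one point per library (Veh blue, CORT orange), with the mean and SD of 3 libraries beside the points. The duodenal effector ratio is 1.25 to 1.84 in CORT and 2.39 to 2.78 in Veh, and the liver libraries lie below 0.8.

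The order of levels differed between the Veh tissues. TPM values are per length, so members can be ranked within a tissue. In the Veh intestine Bak1 stood first (176 TPM), followed by Bad (88.8), Mcl1 (58.0), Bax (44.4), Bcl2l1 (28.2), Pmaip1 (14.3), Bid (6.16), Bcl2l11 (3.33), Bbc3 (2.51) and Bcl2 (0.75). The ranges of neighbours overlapped only for Bcl2l1 with Pmaip1 and for Bcl2l11 with Bbc3. In the Veh liver Mcl1 (26.0 TPM), Bad (24.6) and Bax (23.1) had overlapping ranges at the top, Bcl2l1 (16.0) followed apart from its neighbours, and Bid (9.24), Bak1 (6.86) and Bbc3 (5.39) overlapped in turn. Below them were Bcl2l11 (1.69) and then Bcl2 (0.147) and Pmaip1 (0.0933), which overlapped. The mean Veh level in intestine was 25.6 times that in liver for Bak1 and 153 times for Pmaip1, between 1.76 and 5.11 times for Bcl2, Bcl2l1, Mcl1, Bax, Bcl2l11 and Bad, and below the liver level for Bid (0.667) and Bbc3 (0.466). The effector pool of the Veh liver was 76.9% Bax, whereas that of the Veh intestine was 79.8% Bak1.

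Beyond the 10 members, 15 further family genes and BH3-like relatives were listed, with 9 tested in liver and 12 in intestine. In liver 3 of 9 were called higher in CORT, against 4.91% of all genes tested, and 0 lower. The median difference of the 9 was -0.07, beside 0.08 over all genes. The 3 were Bnip3, Bnip3l and Bcl2l13, which are known above all as receptors that mark mitochondria for mitophagy, and not as core regulators of apoptosis. Bnip3 measured 385, 445 and 324 TPM in the CORT liver and 109.6, 198 and 178 TPM in the Veh liver. Every CORT library was far above every Veh library, and Bnip3 rose by 1.28 (SE 0.24, limma adjusted p = 0.0296).

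Bnip3l measured 58.2, 57.8 and 45.6 TPM in CORT and 20.4, 29.9 and 32.8 TPM in Veh, and rose by 0.95 (adjusted p = 0.0398). Bcl2l13 measured 24.95, 27.0 and 17.7 TPM in CORT and 13.2, 12.1 and 10.8 TPM in Veh, and rose by 0.88 (adjusted p = 0.0358). Neither gene had groups that overlapped. These calls were near the threshold. With a liver library left out, Bnip3 lost its call without CORT library 1, CORT library 2 or Veh library 3 (adjusted p up to 0.094), Bcl2l13 kept it only without CORT library 3 (adjusted p up to 0.128), and Bnip3l lost it in each of the 6 fits (0.0529 to 0.132), while the differences stayed between 0.75 and 1.44. All 3 calls were also lost without the filter on low values (adjusted p = 0.0804 for Bnip3, 0.0941 for Bnip3l and 0.085 for Bcl2l13). The differences between tissues, 1.02 for Bnip3, 0.93 for Bnip3l and 0.56 for Bcl2l13, did not pass the test (adjusted p = 0.0745, 0.0974 and 0.389).

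In intestine 0 of 12 further family genes were called, beside 2.15% of all genes tested. Their median difference was -0.03, beside -0.01 over all genes. At an unadjusted p of 0.05 or less, 1 of the 12 was higher and 0 were lower, beside 8.72% and 10.5% of all genes. The 1 higher was Bok, named after its values were seen, and a count of 1 is near the share of all genes. Bok encodes a BAX-like protein. It measured 18.5, 15.5 and 15.4 TPM in the CORT intestine and 11.0, 9.67 and 11.7 TPM in the Veh intestine, and 5.23, 5.61 and 6.05 TPM in the CORT liver and 7.18, 7.94 and 9.62 TPM in the Veh liver. All CORT libraries were above Veh in intestine and below Veh in liver. Neither difference passed alone (0.57 and -0.47, adjusted p = 0.086 and 0.0959), but the difference of liver minus intestine, -1.04 (95% interval -1.46 to -0.62), did, with a limma adjusted p of 0.0151. The most abundant of the list in intestine were Bcl2l15 at 50.2 to 63.6 TPM in CORT and 16.4 to 67.5 TPM in Veh, Bcl2l14 at 36.0 to 53.1 and 41.4 to 50.8 TPM, and Bnip3l at 23.4 to 35.0 and 26.4 to 27.7 TPM, none of them called. Bcl2l10 was listed at 0 in all libraries of both tissues.

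**Figure D4:**
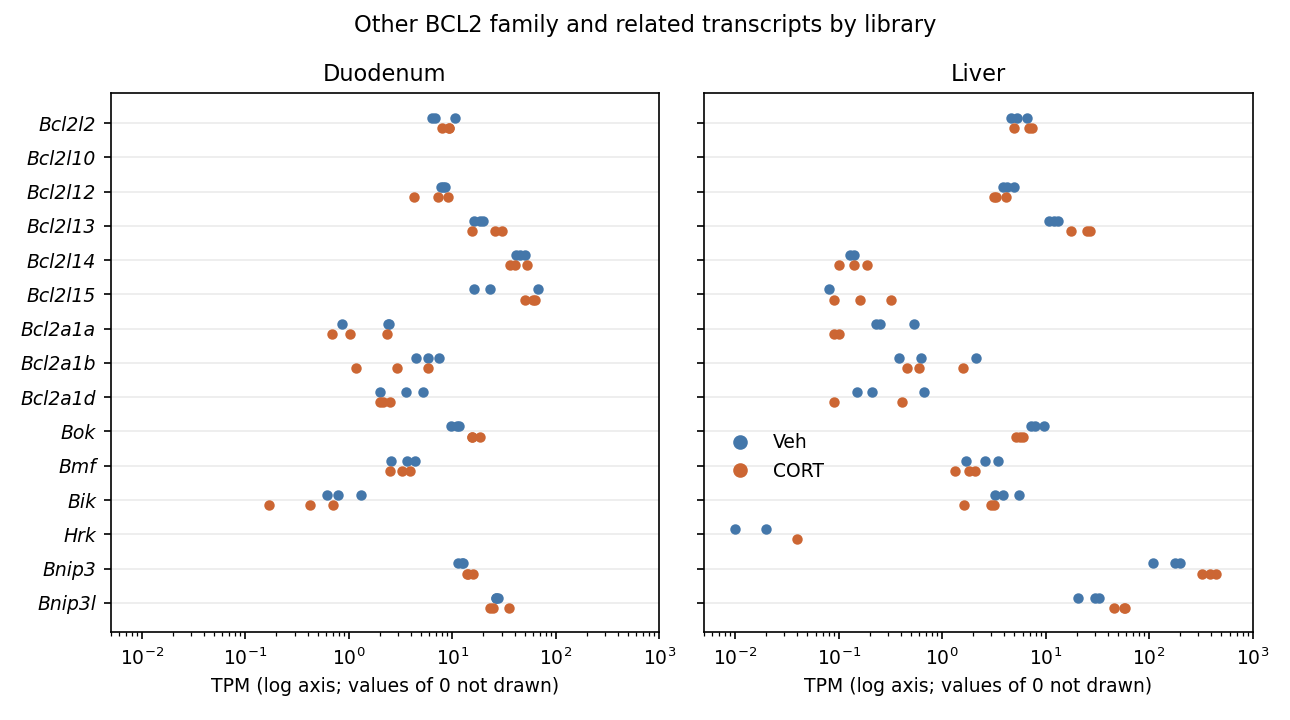
TPM of 15 further BCL2 family and related genes in each library on a log axis, with duodenum on the left and liver on the right (Veh blue, CORT orange, values of 0 not drawn). In liver Bnip3, Bnip3l and Bcl2l13 lie higher in all CORT libraries, and Bok lies to the right of Veh in duodenum and to the left in liver.

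Genes that act before and after the family were counted by lists. Of the steps that follow the mitochondrial pore, 0 of 14 tested genes were called in liver, beside 6.92% of all genes. At an unadjusted p of 0.05 or less, 1 was higher and 2 were lower there, beside 16.9% and 9.06% of all genes. The median difference of the list in liver was -0.06.

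Among 15 tested genes whose products control members by transcription, stability, phosphorylation or docking, 1 was called in liver, Foxo1, which is a share close to the 6.92% of all genes called there. In intestine 0 of 15 were called, beside 2.15% of all genes, and 2 were higher and 1 lower at an unadjusted p of 0.05 or less, beside 8.72% and 10.5%. The list's median differences were 0.17 in liver and -0.01 in intestine. Foxo1 encodes a transcription factor that can induce Bcl2l11. It measured 10.1, 6.59 and 9.57 TPM in the CORT liver and 3.23, 4.17 and 4.64 TPM in the Veh liver, and rose by 0.95 (limma adjusted p = 0.0357), a call that held only without CORT library 2 among the leave-one-out fits (adjusted p 0.0316 to 0.128). It was also lost without the filter on low values (0.0958). Of the death receptor arm upstream of Bid, 0 of 9 were called in intestine and 0 of 7 in liver. Over all genes these shares were 2.15% and 6.92%. In intestine 1 gene of that arm was higher and 0 were lower at an unadjusted p of 0.05 or less, beside 8.72% and 10.5%. In liver 2 were higher and 1 lower at that p, beside 16.9% and 9.06% of all genes. The arm's median differences were 0.03 in intestine and 0.24 in liver.

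Of p53 target genes outside the family, 5 of 16 were called higher in the CORT liver, beside 4.91% of all genes, and 0 lower. In intestine 0 of 17 were called, beside 2.15% of all genes, and 3 were higher at an unadjusted p of 0.05 or less, beside 8.72%. The median difference was 0.30 in liver and 0.20 in intestine. Cdkn1a, which encodes the cell cycle inhibitor p21, measured 147, 98.1 and 130 TPM in the CORT liver and 0.66, 2.00 and 1.65 TPM in the Veh liver, and rose by 5.72 (limma adjusted p = 0.000518). Ei24 measured 171, 160 and 141 TPM in CORT and 76.9, 71.1 and 80.1 TPM in Veh, and rose by 1.04 (adjusted p = 0.00702). Both calls held in all 6 leave-one-out fits. Sesn2, Sulf2 and Trp53inp1 rose by 0.77 to 1.55, and their calls held in 1, 2 and 1 of the 6 fits. These 3 calls were also lost without the filter on low values (adjusted p = 0.0753, 0.0764 and 0.0809), where those of Cdkn1a and Ei24 held. In the same livers the p53-responsive members Bbc3 and Pmaip1 gave the values listed above, with Bbc3 at -0.59 and not called. Cdkn1a differed between the tissues by 5.25 (adjusted p = 1.54e-05) and Sulf2 by 1.36 (adjusted p = 0.0401).

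As no member was called, the genes whose pattern was most like a member were taken for the member with the smallest unadjusted p in each tissue. Over 12 libraries with each tissue's mean removed, among 10500 genes, those most like Bak1 were Ccni, Wipi2 and Guk1 (Pearson r = 0.940, 0.938 and 0.935) and those most like Bcl2l1 were Kctd15, Slc25a51 and Gata6 (0.954, 0.948 and 0.945). The libraries share treatment and tissue, and the highest of so many correlations is high by selection, so these are descriptions only.

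The windows around the start sites of the members were searched for a short element of the glucocorticoid receptor site, AGAACA or its reverse complement TGTTCT. RefSeq windows of GRCm38.p6, from 250 bases before to 50 after a start, were at hand for 9 members and numbered 15, some of them overlapping. The element was in 0 of the 15, beside 19.0% of 32851 windows of all genes, which says only that these letters are not in these windows.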

How the data were processed

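RNA-seq of 3 CORT and 3 Veh libraries per tissue was analysed, 12 in all, grouped by their labels. According to the paper's methods and the submitters' processing notes, the authors aligned the reads with HISAT2, assembled them with StringTie and quantified genes with RSEM on GRCm39, in versions that are not given in the sources used here, and deposited TPM per gene and library, without pooling. TPM is scaled within each library, so depth is unknown and only the spread between libraries measures precision. Where the labels do not say how replicates were raised, p-values measure only that spread.

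Genes that averaged 1 TPM or more in CORT or in Veh were tested on log2(TPM + 1). Each tissue had its own limma fit (version 3.58.1, R 4.3.3, empirical Bayes with a trend), with the Benjamini-Hochberg adjustment over all genes tested. The added 1 shrinks the fold change of weakly expressed genes. Differences between tissues came from 1 fit of all 12 libraries. The script was tested on simulated data. Alternatives were a pseudocount of 0.1, no filter, the replicate number as a block, other call rules, median-ratio scaling, no trend, removal of acinar genes and leaving out libraries. In the fit across tissues, the block was the treatment and the number together. All members are named, with the called genes of the other lists reported here and the 3 most abundant further family genes of each tissue. Of the called genes known to be induced by glucocorticoids, only Fkbp5 is named. The intestine count of the list of steps after the mitochondrial pore is not reported here. The members and lists were chosen with earlier results of these data known. Ddit3, which has 2 identifiers, was left out. BH3 stretches are positions in GRCm38, not in the build of the tables.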

Additional observations from a re-analysis of the deposited data

Results flagged for a closer look

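Of the genes listed around the family, 3 responded to CORT differently in the tissues by limma's test of the difference itself, out of 65 tested in that fit, which is a share near the 3.00% of all 10500 genes called there. For Bok the log2 fold change in liver minus that in intestine was -1.04 (adjusted p = 0.0151), with every CORT library above Veh in intestine and below Veh in liver. The call held in all 12 leave-one-out fits (-1.12 to -0.94). It was lost when the intestine and liver libraries of the same treatment and number were paired as a block. Whether such pairs came from the same mouse is not in the labels. For Cdkn1a the difference was 5.25 (adjusted p = 1.54e-05), from 0.47 in intestine and 5.72 in liver, and it was called in all 15 alternatives. For Sulf2, which encodes a sulfatase at the cell surface, it was 1.36 (adjusted p = 0.0401), from 0.20 and 1.55, and the call held in 2 of the 12 leave-one-out fits, those without liver CORT library 3 and without liver Veh library 2. No member passed this test, and Bak1 came closest with 0.78 (adjusted p = 0.0691).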

How the results depend on the processing

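No member was called in intestine under any of 15 alternatives. In liver 1 member, Bcl2l1, was called at an unadjusted p and 0 to 1 when each library was left out, and between tissues 0 to 1 (Bak1) when each was left out. With the replicate number as a block, 0 members were called in either tissue or between them. The calls over all genes went from 292 to 62 in intestine, from 810 to 307 in liver and from 315 to 192 between tissues. Between tissues the block joined the intestine and liver libraries of the same treatment and number. The liver calls of Bnip3, Bnip3l, Bcl2l13 and Foxo1 were lost with the block (adjusted p = 0.056, 0.0979, 0.0551 and 0.0879). So were those of Sesn2, Sulf2 and Trp53inp1 (0.0867, 0.0634 and 0.0699). Deviations of CORT and Veh libraries with the same number correlated at 0.00 to 0.05 in intestine and -0.17 to 0.01 in liver. CORT and Veh libraries with different numbers correlated at -0.05 to 0.01 in intestine and -0.12 to 0.16 in liver. The main fits of each tissue were planned with treatment only, without the number as a block. Between intestine and liver, same-numbered libraries correlated at 0.04, -0.13 and -0.10 in CORT and 0.10, 0.03 and -0.02 in Veh. These values cannot settle whether such libraries came from the same mouse, and the main fit between tissues treated all 12 libraries as independent. Without a filter on low values 52 and 283 genes were called, at an unadjusted p 1395 and 1808, and with each library left out 66 to 237 in intestine, 247 to 831 in liver and 161 to 444 between tissues. Without both acinar-rich Veh libraries, chosen after seeing the data, 10 genes were called in intestine, with the lone Veh library assumed to vary like the CORT libraries, and Bbc3 turned to -0.28. Signs also turned in liver for Mcl1 (-0.20 to 0.0597 over the leave-one-out fits) and Bax (-0.21 to 0.13). Between tissues the difference turned for Bcl2l11 (-0.15 to 0.21, and -0.0122 with median-ratio scaling), Bid (-0.14 to 0.19, and -0.0748) and Bad (-0.26 to 0.0688). The cause was not tested. Bid in liver had an adjusted p of 0.0549 with median-ratio scaling, beside 0.213, and Bbc3 had 0.124, beside 0.223. With that scaling or with the block, Bid and Bbc3 were lower in the CORT liver at an unadjusted limma p of 0.05 or less. In the main fit only Bcl2l1, which was higher, had such a p. The share of all genes is not given for these settings. The 4 differences in balance kept their sign, but with the mean of log2(TPM + 1) over members in place of summed TPM 3 of them shrank by over 1.5 times, in liver from -0.68 to -0.37 (BH3-only) and from -0.34 to -0.13 (effector) and in intestine from -0.26 to -0.12 (BH3-only). The liver means give full weight to Bcl2 and Pmaip1, which were too low there to be tested. The intestine means give full weight to Bcl2, which entered the test there only through its CORT group.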
